A study of Mus musculus with 8 samples.

Results

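Polyamine metabolism was examined in gastrocnemius (GAS) muscle after knockdown of MYTHO (MYTHO-KD), through the 10 genes that make, break down and control the polyamines putrescine, spermidine and spermine. The members were *Odc1*, *Amd1*, *Srm*, *Sms*, *Sat1*, *Smox*, *Paox*, *Oaz1*, *Oaz2* and *Azin1*. Each was found by its gene symbol, and each matched exactly 1 of the 22206 gene-level probe sets on the Clariom S Mouse array, a chip that reads transcripts with sets of short probes. The samples were GAS muscles of male C57/Bl6j mice whose labelled age was 14 weeks, injected at about 10 weeks of age and collected 3 weeks after intramuscular injection. One leg received an adeno-associated virus (AAV) of serotype 1 with a short hairpin RNA against the *Mytho* transcript (AAV sh-RNA MYTHO, 4 arrays), and the opposite leg received the same kind of virus with a scrambled hairpin (AAV sh-RNA scrmb, 4 arrays). The control muscles were therefore also injected and transduced, and in both viruses a U6 promoter, which is not restricted to muscle fibres, drove the hairpin. The mice are called animals A to D here. Array values are listed in the order of animals A to D throughout. Values are log2 signals, on which 1 unit is a 2-fold difference, and a log2 fold change is the MYTHO mean minus the scrmb mean.

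Polyamines are small, positively charged molecules that bind RNA, DNA and acidic phospholipids, and cells need them for translation and growth. Ornithine decarboxylase makes putrescine from ornithine, and aminopropyl groups donated by decarboxylated S-adenosylmethionine then turn putrescine into spermidine and spermidine into spermine. Acetylation and oxidation run the path backwards. Much of the control lies after transcription, through antizymes that send ornithine decarboxylase to the proteasome and through upstream reading frames, so a transcript level is not an enzyme activity, and neither enzyme activities nor polyamines were measured on these arrays. In skeletal muscle, polyamine enzymes are known as androgen-responsive genes, and *Smox* and *Amd1* are known to fall in several forms of muscle atrophy.

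The hairpin target itself was lowered. *Mytho*, listed as D230025D16Rik (chromosome 8, 105225146 to 105253053), averaged 11.12 ± 0.26 (SD, n = 4) with the scrambled hairpin and 8.31 ± 0.33 (SD, n = 4) with its own, a fall to 14.2% of the scrmb signal (limma adjusted p = 0.00044). The 8 markers of fast fibres, which make up most of mouse GAS, averaged 19.61 to 19.66 on every array, under a ceiling of 19.93 at which *Acta1*, *Myh4* and *Atp2a1* lay on all 8 arrays, while *Ckm* read no higher than 18.37. The mean of 8 slow-fibre genes was 12.80, 11.11, 11.08 and 10.80 in scrmb legs and 13.86, 13.51, 13.82 and 10.87 in MYTHO legs, so the scrmb array of animal A and the MYTHO array of animal D stood apart from their own groups. The RNA came from pieces of whole muscle, where fewer cells of one type and less RNA per cell cannot be told apart.

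No polyamine gene passed the test. With limma and Benjamini-Hochberg adjustment over all probe sets, 0 of the 10 members reached an adjusted p under 0.05, against 0.027% of all probe sets. At an unadjusted p under 0.05, 0 members were higher and 1 was lower, *Sat1*, where 4.81% of all probe sets were higher and 7.58% were lower. Likewise, 0 members met the threshold of the study, a 2-fold change with an unadjusted p under 0.05, which 0.261% of all probe sets met upwards and 1.25% downwards. The groups overlapped for every member, so 0 of the 10 had separate groups, compared with 6.46% of all probe sets. For 9 of the 10 members, *Sat1* being the exception, the 95% interval lay inside 2-fold in both directions, as it did for 84.2% of all probe sets. One of the 9 is *Paox*, whose signals were too near background for its interval to bound a change in the transcript. The median log2 fold change was -0.10 over the 10 members, with 6 of them below 0, while 50.6% of all probe sets were below 0.

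**Figure D1:**
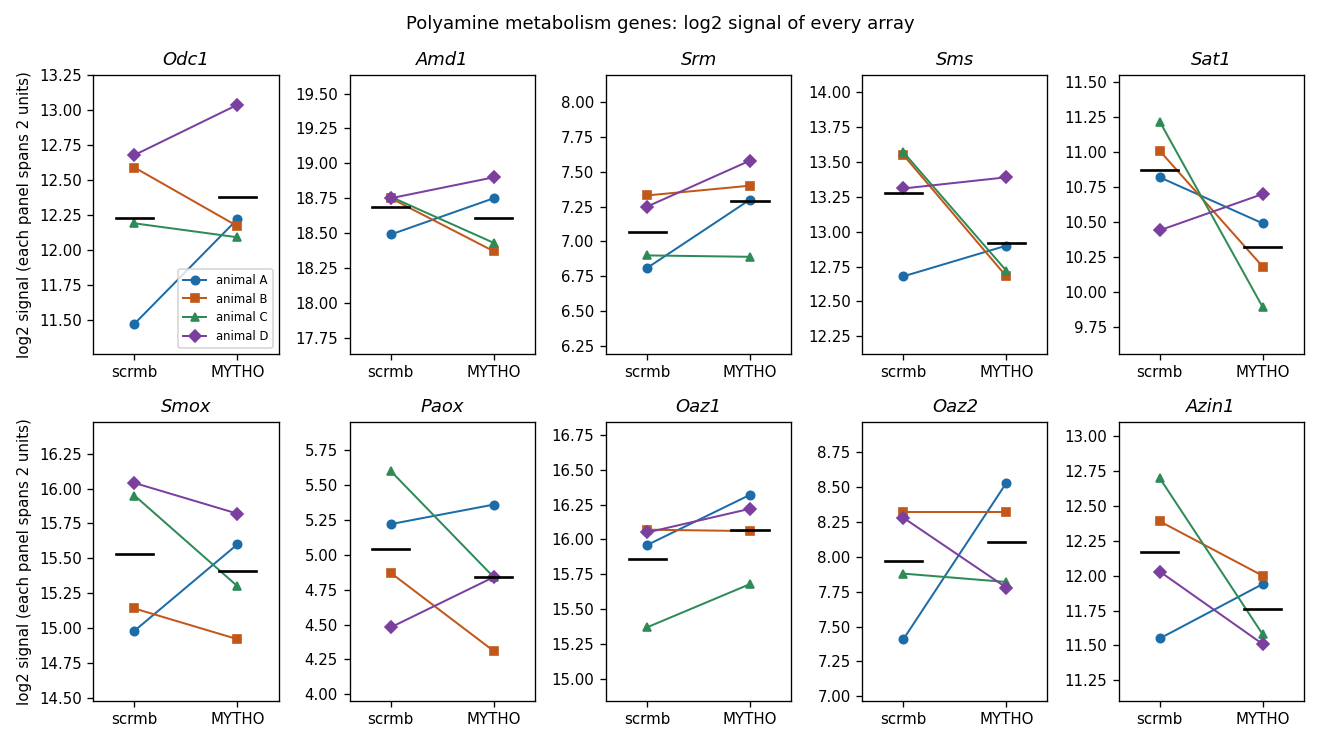
Log2 signal (y axis, each panel spanning 2 units, that is 4-fold) of the 10 polyamine metabolism genes in scrmb and MYTHO muscle, with 1 point per array, lines joining the legs of an animal and black bars at the group means. The groups overlap in all 10 panels, and the means of *Sat1*, 10.87 and 10.32, lie farthest apart.

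The 4 biosynthetic genes had overlapping groups and log2 fold changes between -0.35 and 0.22. *Odc1* (chromosome 12, 17544808 to 17551502) codes for ornithine decarboxylase, which makes putrescine. It read 11.47, 12.59, 12.19 and 12.68 in scrmb legs, and 12.22, 12.17, 12.09 and 13.04 in MYTHO legs. The scrmb array of animal A was the lowest of the 8 and the MYTHO array of animal D the highest. Of the other 6, the 2 lowest were MYTHO and the 2 highest scrmb, but setting aside those end arrays by itself tilts the rest that way. Scrmb legs averaged 12.23 ± 0.55 (SD, n = 4) and MYTHO legs 12.38 ± 0.44 (SD, n = 4), and the log2 fold change was 0.15 (95% interval -0.49 to 0.79, limma adjusted p = 0.884). Either end array set the sign of this difference, which was -0.11 without the scrmb array of animal A and -0.07 without the MYTHO array of animal D.

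*Amd1* (chromosome 10, 40287458 to 40302188) codes for S-adenosylmethionine decarboxylase, which supplies the aminopropyl donor. It was read at 18.49, 18.75, 18.76 and 18.75 in scrmb muscle and at 18.75, 18.37, 18.43 and 18.90 in MYTHO muscle. Among the scrmb arrays 3 were nearly equal and that of animal A lay below them, whereas the MYTHO arrays fell on both sides of them. The log2 fold change was -0.07 (95% interval -0.48 to 0.33, limma adjusted p = 0.908). These signals lay under the ceiling of 19.93 on every array, but near it. Whether signals this high still follow the transcript in proportion was not tested.

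The probe set of *Amd1* also names *Amd2*, a near-identical gene elsewhere on chromosome 10, so its signal cannot be assigned to either gene. The pair shares the short upstream reading frame for which *Amd1* is known, at which ribosomes stall when polyamines are plentiful. It is shown because its letters are the same in both genes, with the first ATG after the start site and its stop in capitals, from RefSeq on GRCm38.p6, at chr10:40302155-40302175 and chr10:35711860-35711880, both on the minus strand.
Amd1: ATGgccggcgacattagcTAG
Amd2: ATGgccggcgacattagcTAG
From that ATG to the end of the promoter window, 37 of 37 bases were identical, while upstream of it 74 of 261 were, comparing position by position without gaps. A separate probe set that names *Amd2* alone averaged 16.41 ± 0.22 (SD, n = 4) in scrmb legs against 16.17 ± 0.41 (SD, n = 4) in MYTHO legs, and its log2 fold change was -0.24 (95% interval -0.73 to 0.26, limma adjusted p = 0.729). Without the MYTHO array of animal B it was -0.08, and without that of animal D -0.39.

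The aminopropyltransferases leaned in opposite directions without passing the test. *Srm* (chromosome 4, 148591513 to 148594619), spermidine synthase, gave 6.81, 7.33, 6.90 and 7.25 in scrmb and 7.30, 7.40, 6.89 and 7.58 in MYTHO muscle. Its log2 fold change was 0.22 (95% interval -0.23 to 0.67, limma adjusted p = 0.722), the MYTHO leg being higher in 3 of 4 animals. Leaving out the MYTHO array of animal D gave 0.12 for *Srm*, and leaving out that of animal C gave 0.35. *Sms* (chromosome X, 157443851 to 157492287), spermine synthase, gave 12.68, 13.55, 13.57 and 13.31 in scrmb and 12.90, 12.68, 12.72 and 13.39 in MYTHO muscle. The *Sms* signal was lower in the MYTHO leg of animals B and C, by 0.87 and 0.85, and 0.22 and 0.08 higher in that of animals A and D. The log2 fold change was -0.35 (95% interval -0.88 to 0.17, limma adjusted p = 0.596), and without the scrmb array of animal A it was -0.55 (unadjusted p = 0.0287, adjusted p = 0.375 by limma). Over all its alternatives the adjusted p of *Sms* ran from 0.275 to 0.958.

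Breakdown begins with *Sat1* (chromosome X, 155213126 to 155216449), the spermidine/spermine acetyltransferase whose products are exported or oxidised, and it was the member with the largest difference. It read 10.82, 11.01, 11.22 and 10.44 in scrmb legs, and 10.49, 10.18, 9.89 and 10.70 in MYTHO legs. Among the 8 arrays, the 3 highest were scrmb and the 2 lowest were MYTHO, but animal D ran the other way, with the lowest scrmb and the highest MYTHO value. Scrmb legs averaged 10.87 ± 0.33 (SD, n = 4) and MYTHO legs 10.32 ± 0.35 (SD, n = 4). The log2 fold change was therefore -0.56 (standard error 0.23). This is 0.679 of the scrmb signal, with a 95% interval from 0.48 to 0.963. The limma p was 0.0326 before and 0.356 after adjustment, so *Sat1* is not called. With the animal as a block its unadjusted p was 0.0624, which left 0 members lower at an unadjusted p under 0.05 (7.66% of all probe sets) and 0 at an adjusted p under 0.05 (0.00901%). Leaving out the scrmb array of animal B or C, or the MYTHO array of animal B or C, also took the unadjusted p past 0.05, to 0.0745, 0.0962, 0.0719 and 0.102. Leaving out both arrays of animal D gave -0.83 (unadjusted p = 0.00548, adjusted p = 0.165 by limma) and leaving out both of animal A gave -0.63 (unadjusted p = 0.0513, adjusted p = 0.467 by limma), and over all alternatives its adjusted p ran from 0.165 to 0.721.

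The polyamine oxidases showed smaller differences. *Smox* (chromosome 2, 131491858 to 131525183) codes for spermine oxidase, which converts spermine straight to spermidine. It gave 14.98, 15.14, 15.95 and 16.04 in scrmb muscle and 15.60, 14.92, 15.30 and 15.82 in MYTHO muscle. The scrmb arrays alone spread over more than 1 log2 unit, more than the difference between the means, which was -0.12 (95% interval -0.73 to 0.50, limma adjusted p = 0.906). Without the scrmb array of animal D this difference was 0.05, and without that of animal A -0.30. *Paox* (chromosome 7, 140115735 to 140134334) codes for the peroxisomal oxidase of acetylated polyamines, and gave 5.22, 4.87, 5.60 and 4.48 in scrmb and 5.36, 4.31, 4.84 and 4.84 in MYTHO muscle. Every *Paox* value lay below the median signal of its array, 6.39 to 6.47, where a set of probes reads little above background. Its log2 fold change was -0.20 (95% interval -0.80 to 0.39, limma adjusted p = 0.814), and -0.02 without the scrmb array of animal C.

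The genes that control ornithine decarboxylase were also within their spread. *Oaz1* (chromosome 10, 80826656 to 80829290) codes for the main antizyme, which binds ornithine decarboxylase and directs it to the proteasome. Its signal was 15.96, 16.07, 15.37 and 16.05 in scrmb and 16.32, 16.06, 15.68 and 16.22 in MYTHO muscle, a log2 fold change of 0.21 (95% interval -0.27 to 0.68, limma adjusted p = 0.755). The scrmb array of animal C was the lowest of its group and the MYTHO array of the same animal the lowest of the other, and without the former the log2 fold change was 0.04. That probe set also names the pseudogene *Oaz1-ps* and *Mir1982*, and cannot separate them. *Oaz2* (chromosome 9, 65676548 to 65690300), a second antizyme, gave 7.41, 8.32, 7.88 and 8.28 in scrmb and 8.53, 8.32, 7.82 and 7.78 in MYTHO muscle. Animal A had the lowest and the highest *Oaz2* value in its opposite legs, a difference of 1.12, while animals B and C differed by 0.00 and -0.06. The log2 fold change of 0.14 (95% interval -0.41 to 0.69, limma adjusted p = 0.871) became -0.05 without the scrmb array of animal A.

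*Azin1* (chromosome 15, 38487430 to 38519294), the antizyme inhibitor that frees ornithine decarboxylase from antizyme, had the second lowest log2 fold change of the members after *Sat1*. It gave 11.55, 12.39, 12.70 and 12.03 in scrmb and 11.94, 12.00, 11.58 and 11.51 in MYTHO muscle. The signal was lower in the MYTHO leg of animals B, C and D and higher in that of animal A, whose scrmb array was the lowest of its group. The log2 fold change was -0.41 (95% interval -0.95 to 0.13, limma adjusted p = 0.544), and without the scrmb array of animal A it was -0.62 (unadjusted p = 0.0199, adjusted p = 0.343 by limma), but without that of animal C it was -0.23 (unadjusted p = 0.357, adjusted p = 0.812 by limma). Over all its alternatives the adjusted p of *Azin1* ran from 0.343 to 0.812.

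Within animals, 0 of the 10 members were higher in the MYTHO leg of all 4 and 0 were lower in all 4, compared with 8.94% and 10.8% of all probe sets. *Sat1*, *Smox* and *Azin1* were lower in 3 animals, and *Srm* and *Oaz1* were higher in 3. Shares of all probe sets with at least 3 animals in one direction were 34.8% lower and 32.8% higher. Animals B and C both had lower *Odc1*, *Amd1*, *Sms*, *Sat1*, *Smox*, *Paox* and *Azin1* in the MYTHO leg, 7 of the 10 members against 30.9% of all probe sets. In animal A 9 of the 10, all but *Sat1*, were higher there, against 48.3% of all probe sets. Both of these counts were chosen after the values were seen. The mean of 4 adipocyte markers went the same way in animals A to C. It was 7.01, 8.04, 8.29 and 5.22 in scrmb legs and 9.85, 5.67, 7.20 and 5.92 in MYTHO legs. So did the mean of 4 fibroblast markers, by 0.30, -0.38 and -0.36, and that of the fast-fibre markers near the ceiling, by 0.03, -0.01 and -0.01. The slow-fibre, regenerating-fibre, macrophage, endothelial, Schwann cell and red blood cell means did not. The part of any of these lists in the values of the polyamine genes was not tested.

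**Figure D2:**
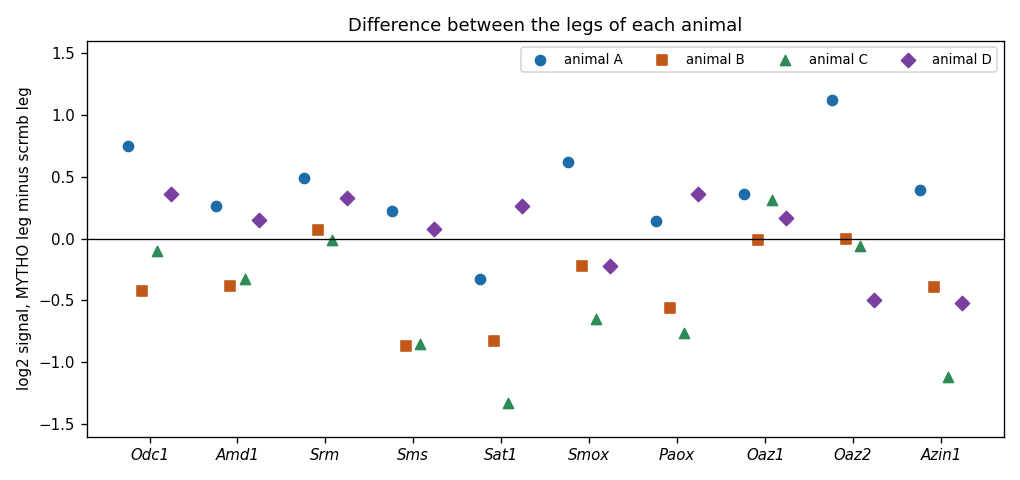
Difference in log2 signal between the MYTHO leg and the scrmb leg of each animal (y axis) for the 10 polyamine metabolism genes (x axis), with 1 point per animal. Points fall on both sides of 0 for all 10 genes, by only -0.01 for *Srm* and *Oaz1*, and animal A lies above 0 for 9 of them.

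The arrays that stood apart on the slow-fibre genes were also at the ends of the polyamine genes. The scrmb array of animal A, with the highest slow-fibre mean of its group, was the lowest scrmb array for 7 of the 10 members (*Odc1*, *Amd1*, *Srm*, *Sms*, *Smox*, *Oaz2* and *Azin1*), where 25.5% of all probe sets had that array lowest. The MYTHO array of animal D, with the lowest slow-fibre mean, was the highest MYTHO array for 6 (*Odc1*, *Amd1*, *Srm*, *Sms*, *Sat1* and *Smox*), where 23.4% of all probe sets had it highest. Both counts were chosen after the values were seen. As a mean of *Odc1*, *Amd1*, *Srm* and *Sms*, scrmb legs gave 12.36, 13.06, 12.86 and 13.00 and MYTHO legs 12.79, 12.66, 12.53 and 13.23. That mean was thus at its lowest in the scrmb array of animal A and at its highest in the MYTHO array of animal D. All 8 slow-fibre genes had a log2 fold change above 0, from 0.90 to 2.44, where 50.6% of all probe sets were below 0. Of the 8, 7 had an unadjusted p under 0.05, where 4.81% of all probe sets were higher at that level. None is called, since 0 of the 8 reached an adjusted p under 0.05 (0.027% of all probe sets). The part of the slow-fibre genes in the values of the polyamine genes was not tested. Without both arrays, a choice that by itself lowers the difference of most members, the log2 fold changes were -0.33 for *Odc1*, -0.24 for *Amd1*, 0.04 for *Srm*, -0.71 for *Sms*, -0.70 for *Sat1*, -0.44 for *Smox*, -0.15 for *Paox*, 0.19 for *Oaz1*, 0.06 for *Oaz2* and -0.53 for *Azin1*.

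The wider pathway was covered by 40 further genes for paralogs, precursor supply, methylthioadenosine salvage, hypusine formation, transport, oxidation and regulation. With the same fit, 0 of the 40 had an adjusted p under 0.05 (0.027% of all probe sets), 1 was higher at an unadjusted p under 0.05 (4.81%) and 0 were lower (7.58%). Their median log2 fold change was 0.04, with 19 below 0 (50.6% of all probe sets), and for 37 of them the 95% interval lay inside 2-fold (84.2%). Only 24 of the 40 had a mean signal in the upper 50% of all probe sets. Where signals were near background, as for *Paox*, such an interval does not bound a change in the transcript. The medians of the precursor and transport genes below include genes with such low signals. Of 11 precursor genes, which supply ornithine and S-adenosylmethionine, 8 were below 0, at a median of -0.14. For the 5 salvage genes, which recycle the methylthioadenosine left by the synthases, the median was -0.20, and for the 10 transport genes it was 0.18. With the animal as a block, 2 of the 40 were higher at an unadjusted p under 0.05, *Eif5a* and the arginine transporter gene *Slc7a1* (log2 fold change 0.50, limma adjusted p = 0.32), against 4.94% of all probe sets. Every *Slc7a1* value, from 4.74 to 6.05, lay below the median signal of its array, as for *Paox*.

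**Figure D3:**
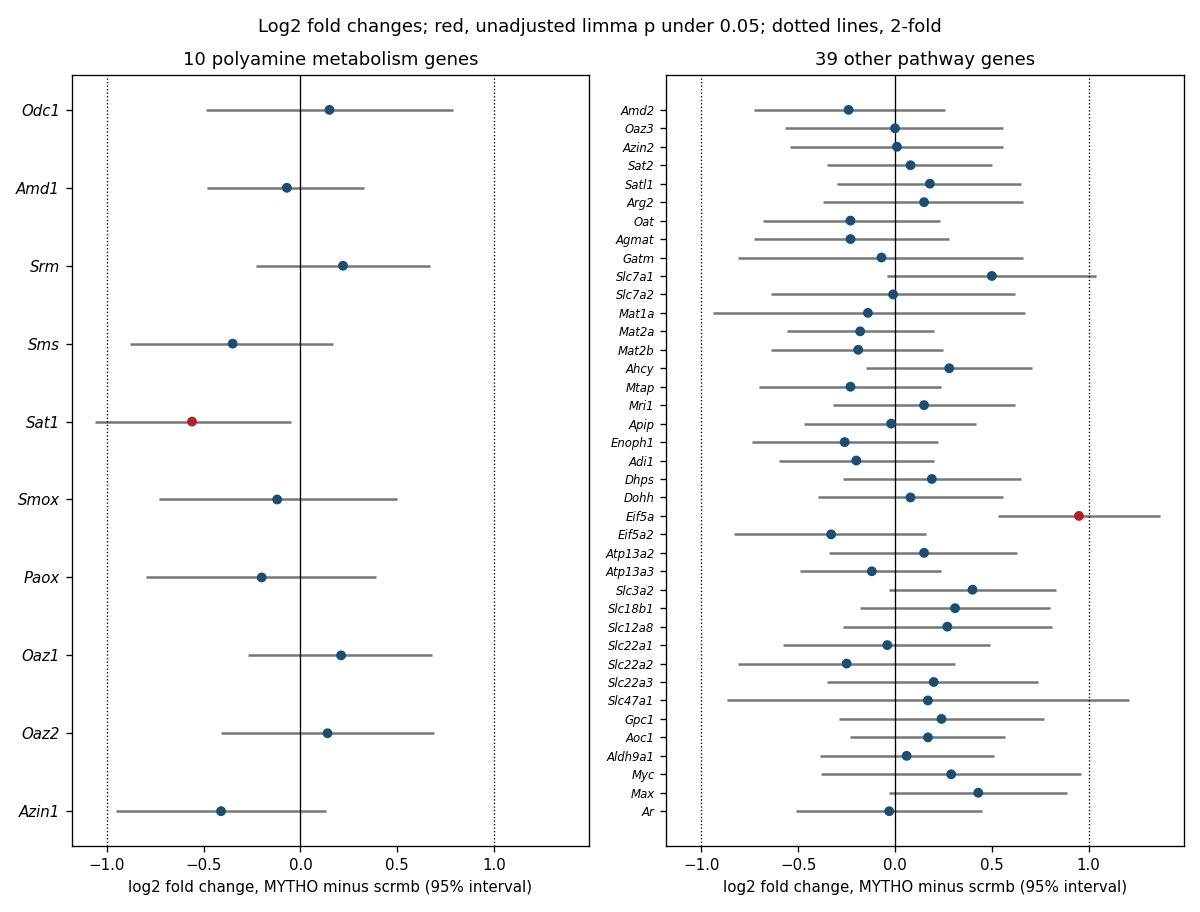
Log2 fold change, MYTHO minus scrmb (x axis), with its 95% interval for the 10 polyamine metabolism genes (left) and 39 of the 40 other pathway genes (right), red points having an unadjusted limma p under 0.05 and dotted lines marking 2-fold. *Sat1* at -0.56 and *Eif5a* at 0.95 are the red points.

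*Eif5a* stood out from the other pathway genes. It codes for the translation factor eIF5A, the protein in which a lysine is converted to hypusine with spermidine as donor, and so links polyamines to translation. It read 15.12, 15.32, 14.88 and 15.54 in scrmb legs, and 16.33, 16.27, 16.09 and 15.97 in MYTHO legs. All 4 MYTHO arrays lay above all 4 scrmb arrays, the gap being smallest in animal D. Scrmb legs averaged 15.22 ± 0.28 (SD, n = 4) and MYTHO legs 16.16 ± 0.17 (SD, n = 4). The log2 fold change was 0.95 (standard error 0.19), and the 95% interval of the fold ran from 1.45 to 2.58. The limma p was 0.000346 before and 0.0946 after adjustment over all probe sets, so it is not called. Its adjusted p passed below 0.05 without the scrmb array of animal D, at 0.0443, and with a trended and robust variance, at 0.0179, and ran up to 0.366 over the other alternatives. The enzymes that form hypusine had log2 fold changes of 0.19 (*Dhps*) and 0.08 (*Dohh*), and the paralog *Eif5a2* had -0.33, each with an interval that spans 0, and single arrays moved all 3. *Dhps* was at 0.04 without the MYTHO array of animal D, *Dohh* at -0.02 without the scrmb array of animal A and *Eif5a2* at -0.17 without the scrmb array of animal B.

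Markers of other cells were set beside these values. The mean of 4 endothelial markers was 10.27 to 10.86 in scrmb and 11.05 to 11.28 in MYTHO muscle, without overlap, and 4 of 4 had a log2 fold change above 0. Macrophage markers overlapped at 7.49 to 7.88 and 7.47 to 7.99. Of the 4 fibroblast markers 3 were below 0, and *Dcn* had groups that did not overlap (log2 fold change -0.59, limma adjusted p = 0.236). The 4 Schwann cell markers were at or below 0, from -0.93, and the 5 regenerating-fibre markers above 0, up to 0.71. The part of any of these transcripts, or of slow-fibre transcripts, in the *Eif5a* and *Sat1* differences was not tested. With the slow-fibre mean as a covariate, *Eif5a* was at 0.90 (unadjusted p = 0.0042, adjusted p = 0.366 by limma), *Sat1* at -0.37 (unadjusted p = 0.222) and *Odc1* at 0.74 (unadjusted p = 0.00973, adjusted p = 0.376 by limma). That fit was added after the values were seen. Its covariate itself differed between the groups, averaging 11.45 in scrmb and 13.01 in MYTHO legs. The fit therefore cannot separate slow-fibre transcripts from the hairpin, and no conclusion is drawn from it.

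**Figure D4:**
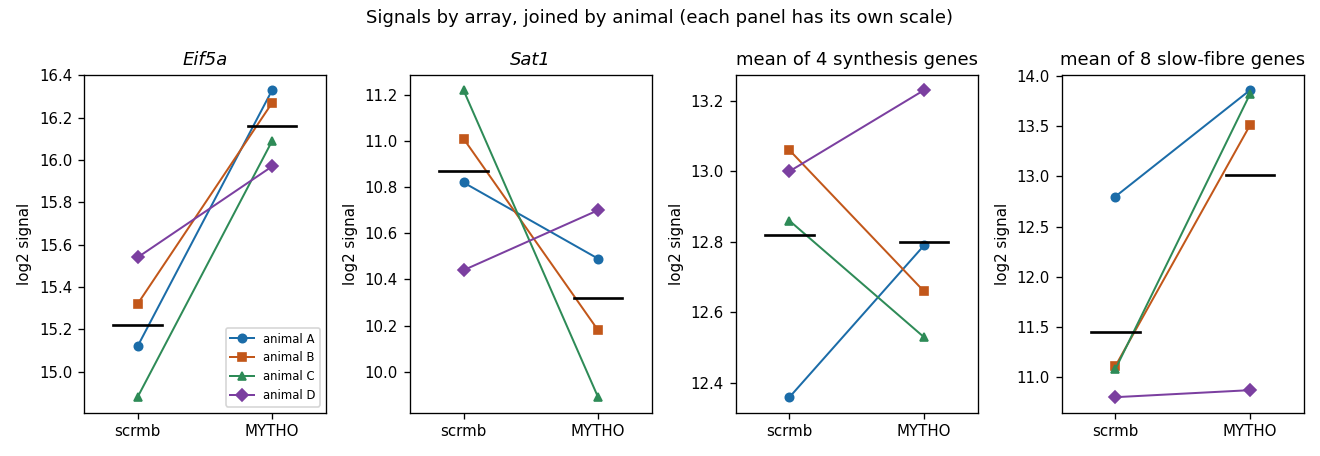
Log2 signal (y axes, each panel with its own scale) of *Eif5a*, *Sat1*, the mean of the synthesis genes *Odc1*, *Amd1*, *Srm* and *Sms*, and the mean of 8 slow-fibre genes, with lines joining the legs of an animal and black bars at the group means. The *Eif5a* groups do not overlap, the *Sat1* and synthesis groups do, and animal D shows almost no difference in the slow-fibre mean (10.80 and 10.87).

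Promoter sequence was read for the E-box CACGTG, the letters bound by the MYC and MAX proteins, which are known activators of polyamine synthesis genes. The RefSeq windows on GRCm38.p6, from 250 bases before to 50 after a start site, covered 8 of the 10 members (not *Srm* and *Azin1*) and 27 of the 40 other genes. The letters, which read the same on both strands, occurred for 1 of 8 members, *Sms*, and for 5 of 27 others, *Dohh*, *Eif5a*, *Eif5a2*, *Enoph1* and *Max*, compared with 8.09% of all genes in the table. The matches of *Sms* and of *Eif5a*, the latter in windows of separate start sites, are printed because *Eif5a* had the largest difference of the pathway and *Sms* was the matching member. Capitals mark the E-box. They lie on the minus strand at chrX:157492466-157492495, chr11:69921443-69921472 and chr11:69920791-69920820, in the order shown.
Sms: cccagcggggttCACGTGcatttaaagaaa
Eif5a, first window: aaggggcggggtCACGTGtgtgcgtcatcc
Eif5a, other window: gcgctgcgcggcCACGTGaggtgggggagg
A match is a run of letters only. The transcripts of the factors had log2 fold changes of 0.29 (*Myc*, 95% interval -0.38 to 0.96) and 0.43 (*Max*, 95% interval -0.03 to 0.89), neither passing the test. The *Myc* value rested on the MYTHO array of animal B, at 9.13 where the other 3 read 7.63 to 7.74, and without it was -0.07.

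Genes with array profiles most like those of *Sat1* and *Azin1*, the members with the smallest p, were found by the root mean square difference of centred log2 signals over the 8 arrays. For *Sat1* these were A930003A15Rik, *Olfr1347*, *Defa-rs7*, *Mrgprx1* and *Dux*, at 0.078 to 0.105, the smallest of 21156 genes compared. For *Azin1* they were *Lingo1*, *Olfr315*, *Pramel4*, *Gm13276* and *Klk1b22*, at 0.146 to 0.157. Some genes out of so many lie close to any profile, and no chance level was computed.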

How the data were processed

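Gene expression was measured in 8 GAS samples, 4 per group. The authors processed Clariom S arrays with Transcriptome Analysis Console 4.0.1 (SST-RMA, which corrects background, quantile normalizes and summarises by median polish; annotation release 36, mm10), and deposited log2 signals rounded to 2 decimals. Normalization of this kind assumes similar overall signal on all arrays. Their group averages, folds, p-values and false discovery rates were not used. Coordinates come from RefSeq GRCm38.p6. The signals were compared with limma 3.58.1 in R 4.3.3 (lmFit, eBayes; two-sided, Benjamini-Hochberg over 22206 probe sets), without a block, and the code was tested on simulated data. An exact permutation test of *Mytho*, which exchanged arrays without regard to the pairing of legs, gave p = 0.0286, the smallest that 70 relabellings allow. The 10 members and the pathway and marker lists were chosen with earlier results of these data known. Named genes were the target, all members, pathway genes with an unadjusted p under 0.05, and the 5 nearest profiles of the 2 members with the smallest p. *Amd2*, *Dhps*, *Dohh*, *Eif5a2*, *Enoph1*, *Slc7a1*, *Myc*, *Max* and the markers *Dcn*, *Ckm*, *Acta1*, *Myh4* and *Atp2a1* were named beside this rule, after their values were seen. Animal numbers in the column names pair the legs, the viruses having gone into opposite legs, and deviations from the group means correlated within animals at 0.00266, -0.00145, 0.135 and 0.0871. Alternatives were other normalizations, filters, variance models, blocks and omitted arrays. Precision is limited by 4 arrays per group. The values of 1 pathway gene are not reported here.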

Additional observations from a re-analysis of the deposited data

Results flagged for a closer look

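Among 34 groups of 4 arrays examined, 7 held 1 array that stood far from the other 3 for the size of the group's range, where chance gives about 1 in 20. That rate is for a single group of normally distributed values. The groups here are not independent, since all come from the same 8 arrays and some means contain genes also examined singly. No excess over chance is therefore read from the count. The values below are the gap divided by the range. For *Odc1*, the MYTHO array of animal D was at 13.04 against 12.09 to 12.22 (0.863). For *Amd1*, the scrmb array of animal A was at 18.49 against 18.75 to 18.76 (0.963). For *Oaz1*, the scrmb array of animal C was at 15.37 against 15.96 to 16.07 (0.843). The mean of *Sat1*, *Smox* and *Paox* was 10.92 in the scrmb array of animal C against 10.32 to 10.34 (0.967). The target D230025D16Rik was at 8.80 in the MYTHO array of animal C against 8.08 to 8.20 (0.833). The slow-fibre mean was 12.80 in the scrmb array of animal A against 10.80 to 11.11 (0.844), and 10.87 in the MYTHO array of animal D, below 13.51 in the next array (0.88).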

How the results depend on the processing

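Under 22 alternatives, 4 of them chosen after seeing the data, *Mytho* stayed between -3.01 and -2.66 (limma adjusted p at most 0.0256), and 0 of the 10 members reached an adjusted p under 0.05, *Paox* being tested in only 20 because both filters on low signal removed it. *Eif5a* did so with a trended and robust variance (0.95, adjusted p = 0.0179) and without the scrmb array of animal D (1.06, adjusted p = 0.0443), in a range of 0.0179 to 0.366. Signs turned for *Odc1* without the scrmb array of animal A and the MYTHO array of animal D together (-0.327) and without animal A (-0.0533), for *Oaz2* without animal A (-0.187), and with the slow-fibre mean as a covariate for *Amd1* (0.127), *Sms* (0.0645) and *Smox* (0.268). Leaving out single arrays gave *Odc1* -0.107 to 0.297, *Amd1* -0.171 to 0.00583, *Smox* -0.30 to 0.0533, *Oaz2* -0.0475 to 0.256, *Srm* 0.124 to 0.354, *Sms* -0.554 to -0.257, *Sat1* -0.702 to -0.416, *Paox* -0.393 to -0.0192, *Oaz1* 0.0433 to 0.337 and *Azin1* -0.616 to -0.232.

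Members lower at an unadjusted p under 0.05 numbered 1, but 0 with the animal as a replicate block, 0 with the slow-fibre covariate, 2 (*Sat1*, *Sms*) without both arrays that stood apart, 1 without animal A (*Azin1* at -0.677, not *Sat1*), and 0 to 3 when single arrays were left out. Members higher numbered 0, and 1 (*Odc1*) with the covariate. Pathway genes higher numbered 1, but 2 with the animal as a replicate block, 2 with trended variance, 2 with the covariate, 3 with quantile normalization, 3 with median centring, 3 without both arrays that stood apart, 5 without animal D, and 1 to 4 when single arrays were left out. Shares of all probe sets at that level were computed only for the main fit (4.81% higher, 7.58% lower) and the replicate block (4.94% higher, 7.66% lower). The counts of the other alternatives thus have no background to be read against. The cause of these changes was not tested. The block changed no other call. A planned block on the labels' own replicate numbers was not run, since no column shows them, and no member had a further probe set to try.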
